A study of Mus musculus with 35 samples.

Results

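Loss of 1 copy of Polb was compared, across 760 genes of the hippocampus, between 13 3xTgAD/Polb+/- mice and 15 3xTgAD mice, which together are 28 of the 35 mice of the series. The members were taken by genotype label and pooled over vehicle and Urolithin A, and the 7 wild-type mice were left out. The 3xTgAD/Polb+/- mice numbered 7 with vehicle (ADPolB_veh) and 6 with Urolithin A (ADPolB_UA). The 3xTgAD mice numbered 8 with vehicle (AD_veh) and 7 with Urolithin A (AD_UA). All 28 mice carry the Tg(APPSwe,tauP301)L1Lfa transgenes and the other 3xTgAD alleles on a C57BL6/J background, and the 13 mice differ from the 15 by a heterozygous Polbtm1Rsky allele. The mice were 18 months old, and Urolithin A was given by gavage at 200 mg/kg per day for 5 months. There were 6 males and 7 females among the 3xTgAD/Polb+/- mice, and 8 males and 7 females among the 3xTgAD mice. The sexes were less even within Urolithin A. There the males were ADPolB_UA 1 and 2 against AD_UA 1, 2, 3 and 8, and the rest were females. RNA came from 5 mg of hippocampal tissue of each mouse and was counted with NanoString barcodes on a mouse Alzheimer disease panel.

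DNA polymerase beta, the product of Polb, fills the short gap left in base excision repair after a damaged base and its sugar have been removed, and it trims the remaining sugar phosphate. This pathway handles much of the oxidative base damage of long-lived cells such as neurons. The 3xTgAD mouse expresses human mutant APP and tau from the neuronal Thy1 promoter, and develops amyloid and tau pathology. Polb itself was not analysed here, so the labels of the 13 mice were not checked against the level of the gene.

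Some mice stood apart from their group before any comparison. AD_veh 2, a male, had 9.85 for Adora2a, an adenosine receptor gene enriched in striatum, on the deposited log2 scale, whereas the other AD_veh mice had 1.90 to 4.23. It also had the lowest value of its group for Bok, a gene used here as a hippocampal subfield marker (6.02, the others 7.72 to 8.60), the lowest mean of the presynaptic genes (10.40, the others 11.04 to 11.41) and the highest mean of the myelin genes (10.83). AD_UA 3 and AD_UA 8 had Adora2a at 8.60 and 7.13, and ADPolB_UA 6 had it at 6.07. The remaining 12 3xTgAD/Polb+/- mice had 0.98 to 4.79. Adora2a was the 1 striatal marker of 20 listed that was measured, so the tissue of these mice was not checked further, and the part of dissection in the results was not tested. The counts of genes and the lists that rest on this mouse are given below with all 28 mice and without it.

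**Figure D1:**
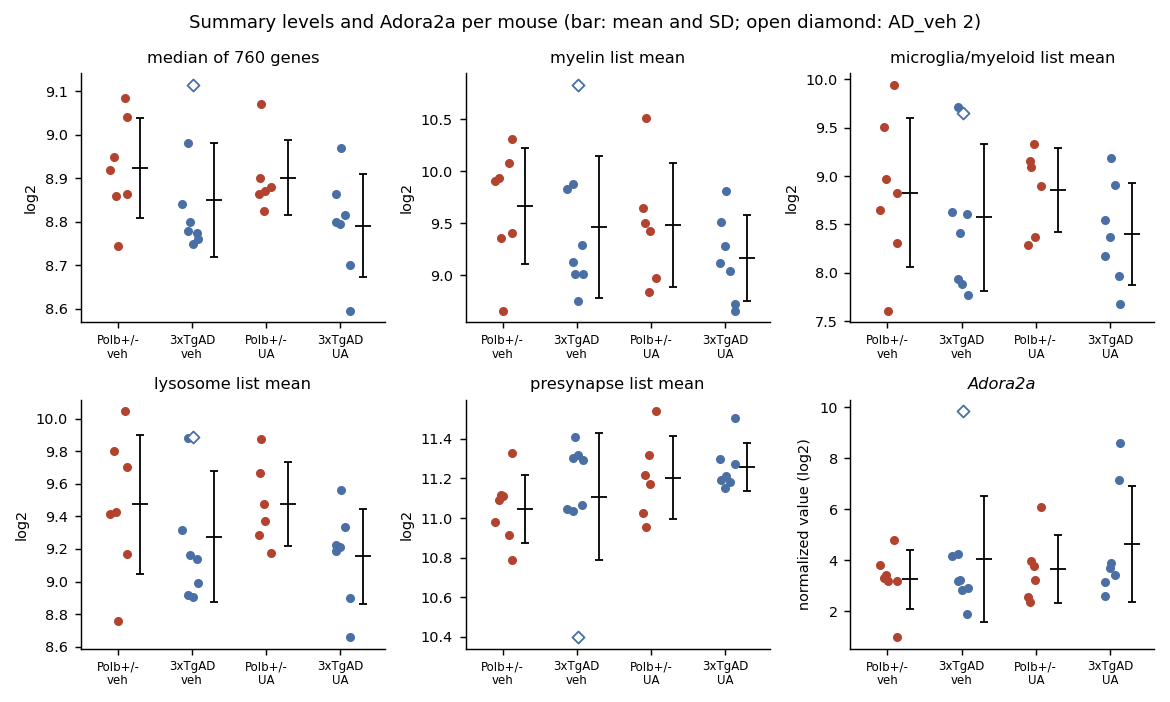
Each point is 1 mouse in the 4 groups (3xTgAD/Polb+/- left of 3xTgAD within vehicle, then within Urolithin A, UA), and the y axes are on the log2 scale. The black bars are the group mean and SD, and the open diamond is AD_veh 2, which is at the top of the myelin panel, at the bottom of the presynapse panel and at 9.85 for Adora2a.

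Genes of astrocytes, microglia, complement, myelin and the lysosome had higher mean values in 3xTgAD/Polb+/- mice than in 3xTgAD mice, and most synaptic genes had slightly lower ones. With all 28 mice no gene passed the threshold of an adjusted p below 0.05 (0 of 760, 0%, limma with Benjamini-Hochberg adjustment, smallest adjusted p = 0.219), and the differences below are given as values. At an unadjusted p below 0.05 there were 117 genes (15.4% of 760), of which 103 (13.6%) were higher and 14 (1.84%) lower in 3xTgAD/Polb+/- mice, where chance would give 38. This split depended on the scaling. With each mouse centred on its own median the split was 62 higher and 66 lower, and with quantile normalization it was 47 and 61. The median difference over the 760 genes was 0.06 on the log2 scale, so a gene at that value differed as much as the panel median. The count was 218 without AD_veh 2 and 76 without ADPolB_veh 7. The 38 is an average, and the chance count spreads widely around it when genes vary together. Here the first principal component, the main pattern of variation between mice, held 44.7% of the variance. It correlated with the mean of the myelin genes at r = 0.945. The set of 117 was therefore not tested against chance.

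The median over all genes of a mouse showed the same lean. It averaged 8.91 ± 0.10 in 3xTgAD/Polb+/- mice (SD, n = 13, range 8.75 to 9.09) and 8.82 ± 0.12 in 3xTgAD mice (SD, n = 15, range 8.60 to 9.12). The groups overlapped over most of their range, although 12 of 13 3xTgAD/Polb+/- mice lay above the median of the 3xTgAD mice. The difference of 0.0919 had p = 0.04 in a two-sided permutation test of genotype within treatment. It was 0.111 (permutation p = 0.00798) without AD_veh 2. It was no longer under 0.05 when 1 of 15 other mice was left out, with differences of 0.0751 to 0.0922 and permutation p of 0.0505 to 0.0826. These were AD_veh 1, 3, 4, 5, 7 and 8, AD_UA 2, 3 and 8, ADPolB_veh 3, 4, 6 and 7, and ADPolB_UA 4 and 5.

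The genes with the smallest p were all higher in 3xTgAD/Polb+/- mice. Dhrs11, which encodes a short-chain dehydrogenase/reductase, came first. It ranged from 5.64 to 6.95 with a median of 6.26 in the 13 3xTgAD/Polb+/- mice, and from 5.22 to 6.23 with a median of 5.84 in the 15 3xTgAD mice. Of the 3xTgAD/Polb+/- mice 11 lay above the 3xTgAD median, and the groups shared the range from 5.64 to 6.23. The difference was 0.53 on the log2 scale (SE 0.13, 1.44-fold, adjusted p = 0.219).

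Wls, which carries Wnt proteins to the cell surface, had 9.03 to 10.06 (median 9.46) in 3xTgAD/Polb+/- mice and 8.36 to 9.63 (median 9.27) in 3xTgAD mice. Of the 3xTgAD/Polb+/- mice 10 lay above the 3xTgAD median, and the difference was 0.36 (SE 0.11, 1.29-fold). Zfp36l1, an RNA-binding protein that speeds the decay of AU-rich messages, had 7.44 to 8.77 (median 8.16) in 3xTgAD/Polb+/- mice and 6.73 to 8.33 (median 7.69) in 3xTgAD mice. All but 1 of the 13 lay above the 3xTgAD median, and the difference was 0.50 (SE 0.14). Sox9, the transcription factor that marks astrocytes in adult brain, had 9.03 to 9.85 (median 9.46) in 3xTgAD/Polb+/- mice and 8.51 to 9.62 (median 9.10) in 3xTgAD mice, a difference of 0.38 (SE 0.11). Its highest 3xTgAD value, 9.62, was that of AD_veh 2.

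Cd2ap, an adaptor between membrane receptors and actin that lies at an Alzheimer risk locus, had 1 mouse far above the rest of the 3xTgAD range. It had 7.38 to 8.05 (median 7.69) in 3xTgAD/Polb+/- mice and 6.98 to 8.18 (median 7.37) in 3xTgAD mice, where AD_veh 2 alone held 8.18. All 13 3xTgAD/Polb+/- mice lay above the 3xTgAD median. The difference was 0.32 (SE 0.09, adjusted p = 0.219) with all mice and 0.37 (SE 0.08, adjusted p = 0.0308) without AD_veh 2. With these 27 mice Cd2ap differed by 0.26 with median centring (adjusted p = 0.0772) and by 0.18 with quantile normalization (adjusted p = 0.113).

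Cd74, the invariant chain that escorts MHC class II molecules, had a wide range in both genotypes. It was at 5.62 to 10.74 (median 8.13) in 3xTgAD/Polb+/- mice and at 5.44 to 9.13 (median 6.80) in 3xTgAD mice. The 3 highest values, 10.74, 9.61 and 9.27, belonged to female 3xTgAD/Polb+/- mice, while the lowest values of both genotypes nearly met. Its difference was 1.14 on the log2 scale (SE 0.35, 2.20-fold, adjusted p = 0.219).

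The further genes described among the 20 with the smallest p had differences of 0.14 to 0.55, each higher in 3xTgAD/Polb+/- mice. Antxr1, a receptor for the anthrax toxin and for collagen, differed by 0.55 (SE 0.17). Naa80, the enzyme that acetylates the end of actin, differed by 0.36, Kank1, an adaptor at focal adhesions, by 0.34, and Myo10, an unconventional myosin of filopodia, by 0.31. Efemp2, the extracellular matrix protein fibulin-4, differed by 0.53. Others were Tnfaip8 (0.53), Itpkb, an inositol trisphosphate kinase (0.52), Pbxip1 (0.48), Ogfod3 (0.33), Aldh2, the mitochondrial aldehyde dehydrogenase (0.29), Trappc6a, of a vesicle-tethering complex (0.29), St6gal1, a sialyltransferase (0.22), and Scaf8, which binds the tail of RNA polymerase II (0.14). Adjusted p ran from 0.219 to 0.255 over the 20. Each gene named kept its direction under median centring and under quantile normalization, but some differences were smaller by over 1.5 times. Scaf8 differed by 0.05 with centring and 0.04 with quantile normalization, and St6gal1 by 0.14 and 0.07. With quantile normalization Cd2ap differed by 0.16, Naa80 by 0.19, Kank1 by 0.17, Ogfod3 by 0.15, Myo10 by 0.16, Trappc6a by 0.145 and Pbxip1 by 0.32.

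**Figure D2:**
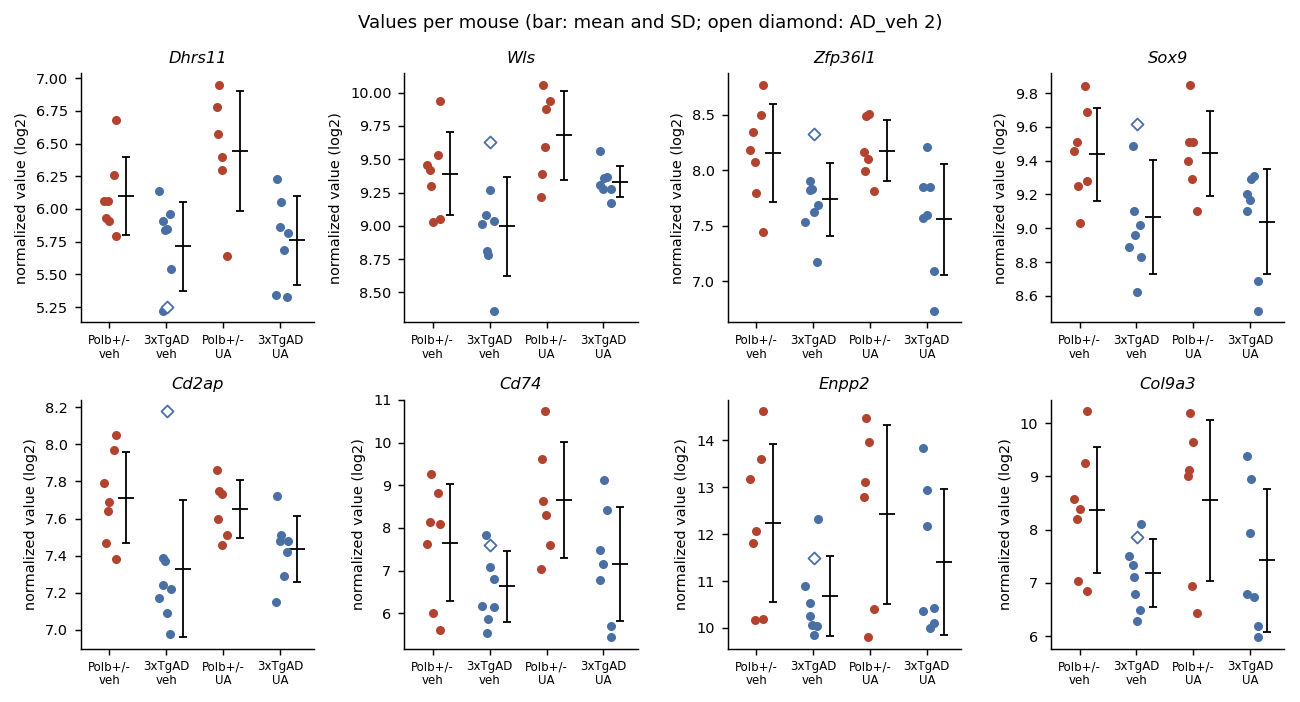
Each point is the normalized log2 value of 1 mouse for 8 genes, with 3xTgAD/Polb+/- left of 3xTgAD within vehicle (veh) and within Urolithin A (UA), and the black bars give the mean and SD. The ranges of the genotypes overlap in every panel, and AD_veh 2 (open diamond) is the highest 3xTgAD mouse for Cd2ap.

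The 5 largest differences at an unadjusted p below 0.05 were those of Enpp2, A2m, Col9a3, Cd74 (as above) and Slc4a2. Enpp2, which encodes autotaxin and is abundant in choroid plexus and also made by oligodendrocytes, had 9.80 to 14.63 (median 12.80) in 3xTgAD/Polb+/- mice and 9.84 to 13.83 (median 10.42) in 3xTgAD mice. The bottom of the range was nearly the same in both genotypes, and 9 of 13 3xTgAD/Polb+/- mice exceeded the 3xTgAD median. The difference was 1.35 (SE 0.54, 2.55-fold, adjusted p = 0.255).

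Col9a3, a chain of collagen IX, and Slc4a2, an anion exchanger, had the same shape. Col9a3 had 6.43 to 10.23 (median 8.58) in 3xTgAD/Polb+/- mice and 5.98 to 9.38 (median 7.11) in 3xTgAD mice, a difference of 1.17 (SE 0.42). Slc4a2 had 7.22 to 10.32 (median 8.95) in 3xTgAD/Polb+/- mice and 6.97 to 9.65 (median 7.40) in 3xTgAD mice, a difference of 0.89 (SE 0.34). The same mice were at the top. ADPolB_veh 7 had 14.63, 10.23 and 10.25 and ADPolB_UA 5 had 14.48, 10.19 and 10.32 for Enpp2, Col9a3 and Slc4a2, and AD_UA 1, the highest 3xTgAD mouse, had 13.83, 9.38 and 9.65. Some genes described above shared this. ADPolB_veh 7 and ADPolB_UA 5 also had the highest values of all mice for Antxr1 (8.15 and 8.13), Kank1 (7.94 and 8.18) and Tnfaip8 (7.73 and 8.04). The same held for Aldh2 (10.21 and 10.26) and Efemp2 (7.89 and 7.98), but not for Cd74 or Scaf8. Enpp2 was the 1 measured gene of 17 in the choroid plexus, ependyma and blood list, and the part of choroid plexus tissue in these values was not tested.

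A2m, a broad protease inhibitor, differed by 1.19 (SE 0.48). It had 6.28 to 10.17 (median 8.07) in 3xTgAD/Polb+/- mice and 3.58 to 9.08 (median 6.93) in 3xTgAD mice. Its 2 lowest values, 3.58 and 3.79, were those of AD_UA 8 and AD_UA 3, the mice with high Adora2a.

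Among the 14 genes lower at an unadjusted p below 0.05, the 5 largest differences were those of Rgs4, Nptx2, Cox6c, Mal2 and Rgs7bp. Rgs4, a regulator of G protein signalling in neurons, had 10.27 to 12.56 (median 10.90) in 3xTgAD/Polb+/- mice and 10.46 to 12.95 (median 11.19) in 3xTgAD mice, a difference of -0.53 (SE 0.25). The top of the 3xTgAD range was held by AD_UA 3 (12.95), AD_UA 8 (12.93) and AD_veh 2 (12.76). Nptx2, an activity-regulated neuronal pentraxin, differed by -0.44 (SE 0.21), and Mal2, a membrane proteolipid, by -0.33. The highest Nptx2 values were those of AD_UA 7 (8.98), AD_UA 8 (8.85), AD_UA 3 (8.59) and ADPolB_UA 6 (8.56). Rgs7bp, which anchors R7 regulators of G protein signalling, differed by -0.31. Cox6c, a subunit of cytochrome c oxidase, had 3.30 to 5.01 (median 4.26) in 3xTgAD/Polb+/- mice and 3.94 to 5.44 (median 4.61) in 3xTgAD mice. These values lay far below the sample medians of 8.60 to 9.12, and how background was handled is not given. Only 2 of 13 3xTgAD/Polb+/- mice lay above the 3xTgAD median for Cox6c, and its difference was -0.41 (SE 0.15). Adjusted p for these 5 genes ran from 0.255 to 0.319. Without AD_veh 2 Rgs4 differed by -0.42 (SE 0.23), with an unadjusted p of 0.0785 in limma. Nptx2, Cox6c, Mal2 and Rgs7bp stayed below 0.05 in unadjusted p.

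Without AD_veh 2, 19 of 760 genes (2.5%) passed the adjusted threshold in limma, all of them higher in 3xTgAD/Polb+/- mice, and 12 of the 19 were among the 20 with the smallest p in all 28 mice. The unadjusted count was then 191 higher (25.1%) and 27 lower (3.55%). Among the 19 were Cd2ap, Decr1, Sox9, Wls, Zfp36l1, Srebf1, Tatdn3, St6gal1, Rhoq, Cd74, Dhrs11, Naa80, Antxr1, Mob1a, Ogfod3, Scaf8, Rdx and Tgfbr2. Decr1, Srebf1, Tatdn3, Rhoq, Mob1a and Rdx are named because they passed here, a choice made after their values were seen. The calls did not hold under other scalings of the same 27 mice. With median centring 0 of 760 genes passed (smallest adjusted p = 0.0772) and the unadjusted split was 95 higher and 148 lower, 243 in all. With quantile normalization 0 passed (smallest adjusted p = 0.062) and the split was 84 higher and 109 lower, 193 in all. The lean towards higher values was thus turned round by both scalings. Of the 19, 18 had an unadjusted p below 0.05 with centring and 14 with quantile normalization. They also did not hold without all 3 of AD_veh 2, AD_UA 3 and AD_UA 8, where 0 genes passed (smallest adjusted p = 0.0796, 134 at an unadjusted p below 0.05). All 3 are 3xTgAD mice, and ADPolB_UA 6, with Adora2a at 6.07, was kept in that fit. Without ADPolB_UA 6 alone, 156 genes had an unadjusted p below 0.05, 114 higher and 42 lower. With all 28 mice kept and each weighted by how closely it followed the fit, 121 genes passed, 118 higher and 3 lower. The weights ran from 0.137 for AD_veh 2 to 3.65 for ADPolB_veh 4, and 83 of the 121 were below 0.05 in unadjusted p without weights.

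Among the 27 mice, Decr1, a mitochondrial reductase of unsaturated fatty acid oxidation, differed by 0.32 (SE 0.08, adjusted p = 0.049), and 9 of 13 3xTgAD/Polb+/- mice exceeded every one of the 14 3xTgAD mice. Srebf1, the transcription factor that drives lipid synthesis, differed by 0.41 (SE 0.10), with 8 of 13 above every 3xTgAD mouse. Rhoq, a small GTPase, differed by 0.24, with 9 of 13 above, and Rdx, the membrane to actin linker radixin, by 0.26, with 8 of 13 above. Tgfbr2, the type II receptor of transforming growth factor beta, differed by 0.57 (SE 0.16, adjusted p = 0.05). Mob1a, a co-activator of Hippo pathway kinases, differed by 0.27, and Tatdn3 by 0.30. With quantile normalization of the 27 mice Decr1 differed by 0.12, Mob1a by 0.11, Tatdn3 by 0.16 and Rhoq by 0.12, with unadjusted p of 0.0736, 0.0544, 0.0812 and 0.0234. In all 19 the difference was above 0 both among vehicle mice and among Urolithin A mice. With all mice kept, 363 of 760 genes were higher in both treatments. The 19 were chosen by adjusted p in the pooled fit to the same mice. Their shared sign follows in part from that choice and is not separate evidence.

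**Figure D3:**
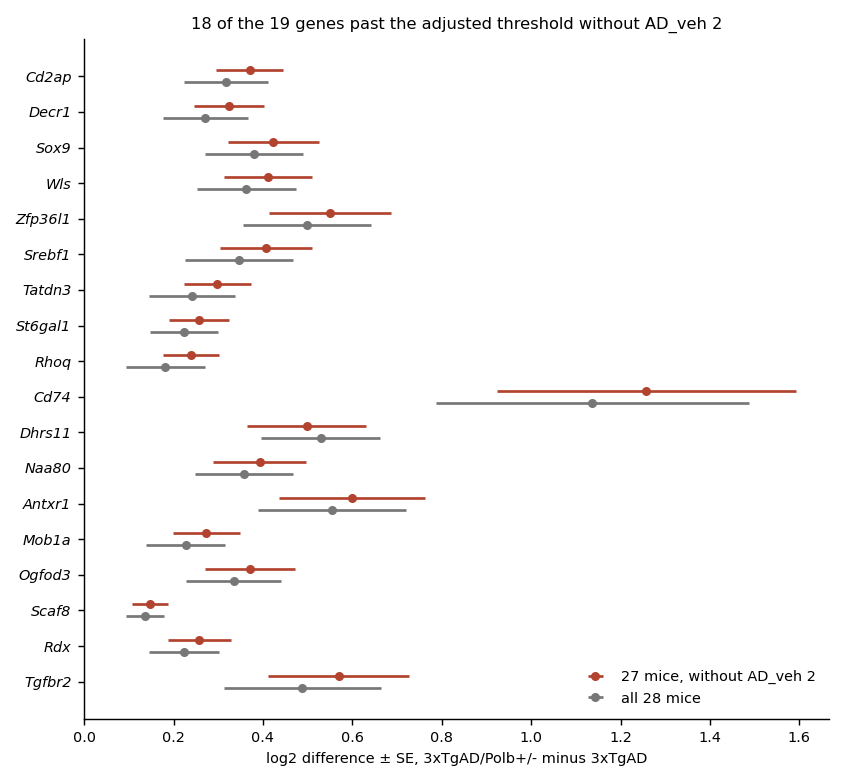
The x axis is the log2 difference of 3xTgAD/Polb+/- minus 3xTgAD with its SE for 18 of the 19 genes past the adjusted threshold without AD_veh 2, ordered by p. Red points are the fit to 27 mice and grey points the fit to all 28. The difference of Cd2ap is 0.37 and 0.32, and that of Cd74, the largest, is 1.26 and 1.14.

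Gene lists were next described by their members' differences, beside the panel, in which 503 of 760 genes (66.2%) were higher and the median was 0.06. At an unadjusted p below 0.05, 13.6% of the panel was higher and 1.84% lower, 15.4% in all. Values from bulk tissue do not tell a larger number of cells of a type from more RNA per cell. Of 30 lists of brain cell types and pathways, 18 had at least 3 measured genes.

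Glial and immune lists lay furthest above the panel. All 6 general microglia and myeloid genes were higher, with a median of 0.29, and none had an unadjusted p below 0.05. Lcp1, an actin bundler of leukocytes, differed by 0.42 (SE 0.21), and Cyba, a subunit of the phagocyte NADPH oxidase, by 0.49 (SE 0.26). The mean of these genes ranged from 7.61 to 9.94 in 3xTgAD/Polb+/- mice and from 7.68 to 9.72 in 3xTgAD mice, so the genotypes covered nearly the same range. Of 6 disease-associated microglia genes 5 were higher (median 0.37), and 2 had an unadjusted p below 0.05, where 13.6% of the panel was higher at that p. These were Csf1, a growth factor of microglia (0.43, SE 0.19), and Cd63, a tetraspanin of late endosomes (0.48, SE 0.21). Apoe differed by 0.32 (SE 0.17), and Trem2, the microglial receptor of the same programme, by -0.09.

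All 4 complement genes were higher, with a median of 0.39. Serping1, the inhibitor of the C1 complex, differed by 0.57 (SE 0.24, unadjusted p = 0.0277), and the C1q chains C1qa, C1qb and C1qc by 0.40, 0.33 and 0.38 with unadjusted p of 0.141 to 0.19. Both measured antigen presentation genes were higher, Cd74 as above and B2m, the light chain of MHC class I, by 0.39 (SE 0.21). Of the 3 measured cytokine receptor genes Tnfrsf1a, a tumour necrosis factor receptor, differed by 0.50 (SE 0.19) and Tgfbr2 by 0.49 (SE 0.18), both at an unadjusted p below 0.05. At that p 13.6% of the panel was higher. Tgfbr1 differed by 0.23 (SE 0.15).

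All 4 general astrocyte genes were higher (median 0.27). Sox9 and Ezr, the membrane to actin linker ezrin (0.43, SE 0.17), had an unadjusted p below 0.05, where 13.6% of the panel was higher. Mlc1 (0.15) and Gja1, the gap junction protein connexin 43 (0.07), did not. The list mean was 9.88 ± 0.21 in 3xTgAD/Polb+/- mice and 9.61 ± 0.26 in 3xTgAD mice (SD, n = 13 and 15). Of the 4, 3 were higher with median centring and all 4 with quantile normalization. All 5 endothelial genes were higher (median 0.19), from 0.06 for Esam to 0.25 for Flt1, and none had an unadjusted p below 0.05. The endothelial median was 0.02 with quantile normalization. It was 0.32 among vehicle mice and 0.05 among Urolithin A mice, beside 0.04 and 0.11 for the panel. The difference between treatments in this list was not tested.

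Without AD_veh 2 the medians of these lists lay higher, at 0.38 for general microglia, 0.44 for disease-associated microglia, 0.49 for complement, 0.31 for astrocytes and 0.24 for endothelium, beside 0.07 for the panel. The members with an unadjusted p below 0.05 were then 2 of 6, 4 of 6, 1 of 4, 3 of 4 and 2 of 5, all of them higher, where 25.1% of the panel was.

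The myelin list combined a shared direction with a wide spread between mice. All 32 measured oligodendrocyte and myelin genes were higher, by 0.04 to 0.63 with a median of 0.24, yet 1 of 32 had an unadjusted p below 0.05, against 15.4% over the panel. That gene was Elovl7, a fatty acid elongase (0.63, SE 0.29). Mbp, myelin basic protein, differed by 0.30 with an unadjusted p of 0.207. The list mean was 9.58 ± 0.56 in 3xTgAD/Polb+/- mice and 9.32 ± 0.57 in 3xTgAD mice (SD, n = 13 and 15). The highest single mean was that of AD_veh 2. Without it the list median was 0.33, and 4 of 32 members were below 0.05 in unadjusted p, where 25.1% of the panel was higher at that p. With median centring of the 27 mice 2 of 32 were. Of the 32 genes 31 were higher under median centring, and 31 under quantile normalization.

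All 11 lysosomal genes were higher, with a median of 0.25, and 3 had an unadjusted p below 0.05, where 13.6% of the panel was higher at that p. They included Cd63, as above, and Lamp2, a membrane protein of the lysosome (0.35, SE 0.13). Grn, progranulin, differed by 0.25 (SE 0.13), and Tfeb, the transcription factor of lysosomal genes, by 0.27. Ctss and Laptm5, which microglia express, were also in the myeloid list, and Cd63 was also in the disease-associated list. Without AD_veh 2, 6 of the 11 had an unadjusted p below 0.05, where 25.1% of the panel was higher at that p, and with median centring of these mice 4 of the 11 had.

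Synaptic genes lay below the panel. Of 28 presynaptic genes 22 were lower, with a median of -0.06, and none had an unadjusted p below 0.05. The furthest were Stx1a, a plasma membrane SNARE (-0.33, SE 0.24), and Cplx1, which clamps the SNARE complex (-0.20, SE 0.10). Of 6 postsynaptic genes 5 were lower, with a median of -0.07. Cnksr2, a scaffold protein, differed by -0.19, and Ppp3r1, the regulatory subunit of calcineurin, by -0.13. The list mean of the presynaptic genes was 11.12 ± 0.20 in 3xTgAD/Polb+/- mice and 11.18 ± 0.25 in 3xTgAD mice (SD, n = 13 and 15). Without AD_veh 2, which was the lowest mouse, 26 of 28 presynaptic genes were lower (median -0.10), 3 with an unadjusted p below 0.05, and all 6 postsynaptic genes were lower, also 3 of them, where 3.55% of the panel was lower at that p. With median centring of these 27 mice 14 of 28 presynaptic and 6 of 6 postsynaptic genes were lower at that p, against 148 of 760 genes. With quantile normalization of all 28 mice 21 of 28 presynaptic genes were lower, and with median centring all 28 were.

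Of 4 GABA genes 3 were lower (median -0.08). Gabrg1, a receptor subunit, was the exception at 0.33. Both activity-dependent genes were lower, Nptx2 as above and Vgf, a neuropeptide precursor, by -0.05. Gria3, an AMPA receptor subunit, differed by -0.18.

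**Figure D4:**
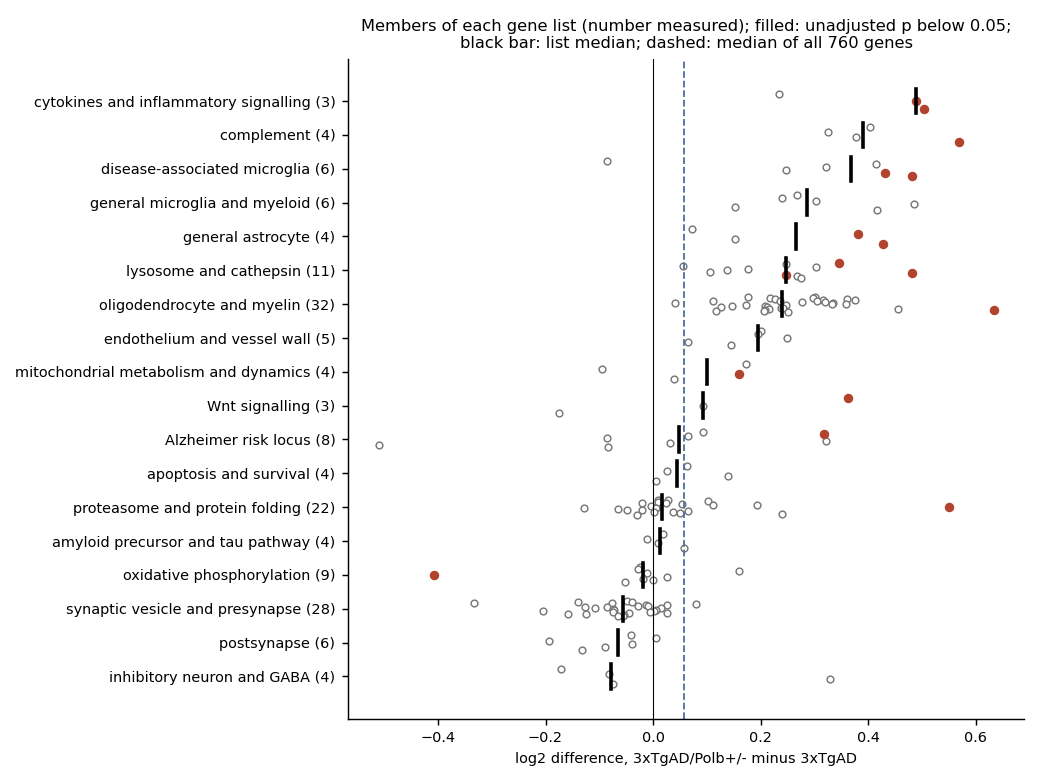
The x axis is the log2 difference of 3xTgAD/Polb+/- minus 3xTgAD, and each circle is 1 member of a list of at least 3 measured genes. Filled circles had an unadjusted p below 0.05, black bars are list medians, and the dashed line is the median of all 760 genes at 0.06. Immune, astrocyte, lysosome and myelin lists lie to the right of the dashed line, and the synaptic and GABA lists lie to the left of 0.

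The 4 apoptosis and survival genes differed by 0.01 to 0.14 in the pooled fit. Among vehicle mice 1 of 4 was higher (median -0.07), among Urolithin A mice 4 of 4 were (median 0.14), and with median centring 1 of 4 was. Bcl2, the survival factor, differed by 0.06 (SE 0.12) and Mcl1 by 0.14 (SE 0.09), and the direction of Bcl2 turned with median centring (-0.02) and with quantile normalization (-0.11). Both measured autophagy genes were lower, Gabarapl1, of the LC3 family, by -0.05 and Tollip by -0.01. Among Urolithin A mice 1 of the 2 was higher.

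Of 9 oxidative phosphorylation genes 7 were lower, with a median of -0.02, and Cox6c was the 1 gene with an unadjusted p below 0.05. The other 8 differed by -0.05 (Atp5j2) to 0.16 (Ndufab1). The direction of the list was not the same in both treatments, with 1 of 9 higher among vehicle mice (median -0.07) and 8 of 9 among Urolithin A mice (median 0.07). Over the panel 455 of 760 genes were higher among vehicle mice (median 0.04) and 529 among Urolithin A mice (median 0.11), and the differences between treatments in these lists were not tested. Of 4 genes of mitochondrial metabolism and dynamics 3 were higher, with a median of -0.02 among vehicle mice and 0.21 among Urolithin A mice, and Mfn1, mitofusin 1, differed by 0.16 (SE 0.06, unadjusted p = 0.0199). That difference was 0.07 with median centring and 0.03 with quantile normalization. Of 22 proteasome and folding genes 15 were higher, but the median was 0.02, and with median centring 5 were higher and the median was -0.07. Among vehicle mice 6 of 22 were higher (median -0.06), and among Urolithin A mice 19 of 22 were (median 0.09). Without AD_veh 2, the mouse with the lowest mean of these genes in its group, 12 of 22 were higher in the pooled fit (median 0.0001). Hspb8, a small heat shock protein, differed by 0.55 (SE 0.24, unadjusted p = 0.031), with values of 6.89 to 8.85 in 3xTgAD/Polb+/- mice and 5.55 to 8.30 in 3xTgAD mice.

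None of the 4 measured genes of the amyloid precursor and tau list had an unadjusted p below 0.05. App, the mouse homologue of the amyloid transgene, was at 13.65 to 14.08 (median 13.97) in 3xTgAD/Polb+/- mice and at 13.70 to 14.09 (median 13.90) in 3xTgAD mice. Its difference was 0.02 (SE 0.05), -0.07 with median centring and -0.01 with quantile normalization. Mapt differed by -0.01 (SE 0.10). Whether the App and Mapt probes also bind the human transcripts was not tested. Of 8 Alzheimer risk genes 5 were higher, with a median of 0.05, and Cd2ap was the 1 with an unadjusted p below 0.05. Over the panel 15.4% of genes had such a p. Mef2c, a neuronal and myeloid transcription factor, differed by -0.51 (SE 0.35), with 0.09 among vehicle mice and -1.22 among Urolithin A mice. Its highest values were those of AD_UA 8 (12.92), AD_UA 7 (12.91), ADPolB_UA 6 (12.73) and AD_UA 3 (12.57). All of these but AD_UA 7 were mice with high Adora2a, while AD_veh 2 had 10.58. The part of these mice in the difference was not tested.

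The panel genes on the chromosome of Polb, which are inherited together with a targeted allele when they lie close to it, were counted apart. Of these 29 genes 4 (13.8%) had an unadjusted p below 0.05, 3 higher and 1 lower, against 15.5% of the 731 genes elsewhere. The nearest measured neighbours, Hgsnat, Thap1 and Unc5d, differed by -0.01, -0.09 and -0.06. Fat1, the next, differed by 0.24 (SE 0.11, unadjusted p = 0.0396).

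The comparison was then repeated within each treatment, where the mice are not shared. Both sets of differences came from the same fit, with a shared sex term and a shared estimate of variance. Their p-values are therefore not independent. Among vehicle mice 37 genes (4.87%) had an unadjusted p below 0.05, 28 higher and 9 lower, and among Urolithin A mice 93 (12.2%) had, 67 higher and 26 lower. No gene passed the adjusted threshold in either. The difference had the same sign in both treatments for 502 of 760 genes (66.1%), 363 higher and 139 lower. Across genes, which are not independent replicates, Pearson's r between the 2 sets of differences was 0.533 and Spearman's rho 0.512. Of the vehicle genes 30 of 37 had the same sign under Urolithin A, and of the Urolithin A genes 69 of 93 had it under vehicle.

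The vehicle count rested on AD_veh 2 more than on any other mouse. Without it 135 genes (17.8%) had an unadjusted p below 0.05 among vehicle mice, 109 higher and 26 lower, and 1 gene (0.132%) passed the adjusted threshold in limma. That gene was Cd2ap, at 0.49 (SE 0.10, adjusted p = 0.0399). With median centring of the same 27 mice 0 genes passed and 178 had an unadjusted p below 0.05, 55 higher and 123 lower, and with quantile normalization 0 passed and 134 had. The vehicle count was 63 without ADPolB_veh 2, 22 without AD_veh 3, 19 without ADPolB_veh 7 and 17 without ADPolB_veh 6. The Urolithin A count was 157 without ADPolB_UA 6, 58 without AD_UA 7, 57 without ADPolB_UA 2, 54 without AD_UA 3 or AD_UA 8 and 46 without ADPolB_UA 5.

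The genes with an unadjusted p below 0.05 in both were 6, and all were higher in 3xTgAD/Polb+/- mice. They were 6 of the 37 vehicle genes, where 12.2% of the panel had such a p under Urolithin A. They were 6 of the 93 Urolithin A genes, where 4.87% of the panel had such a p under vehicle. Cd74 differed by 1.12 with vehicle and 1.16 with Urolithin A, and Sox9 by 0.38 and 0.38. Scaf8 differed by 0.12 and 0.15, Zfp36l1 by 0.43 and 0.58, and Dhrs11 by 0.38 and 0.71. Dhrs11 had 5.79 to 6.68 (median 6.06) in ADPolB_veh and 5.22 to 6.14 (median 5.85) in AD_veh, and 5.64 to 6.95 (median 6.48) in ADPolB_UA and 5.33 to 6.23 (median 5.82) in AD_UA. With any 1 mouse left out, 1 to 18 genes had an unadjusted p below 0.05 in both. The 18 came without AD_veh 2, where 135 genes (17.8%) had such a p with vehicle and 115 with Urolithin A. The Urolithin A count was 93 with all mice, although AD_veh 2 is a vehicle mouse, because the fit is shared. All 18 were higher and 5 of the 6 were among them. Dhrs11 was the exception, at 0.29 with vehicle (unadjusted p = 0.114) and 0.72 with Urolithin A.

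**Figure D5:**
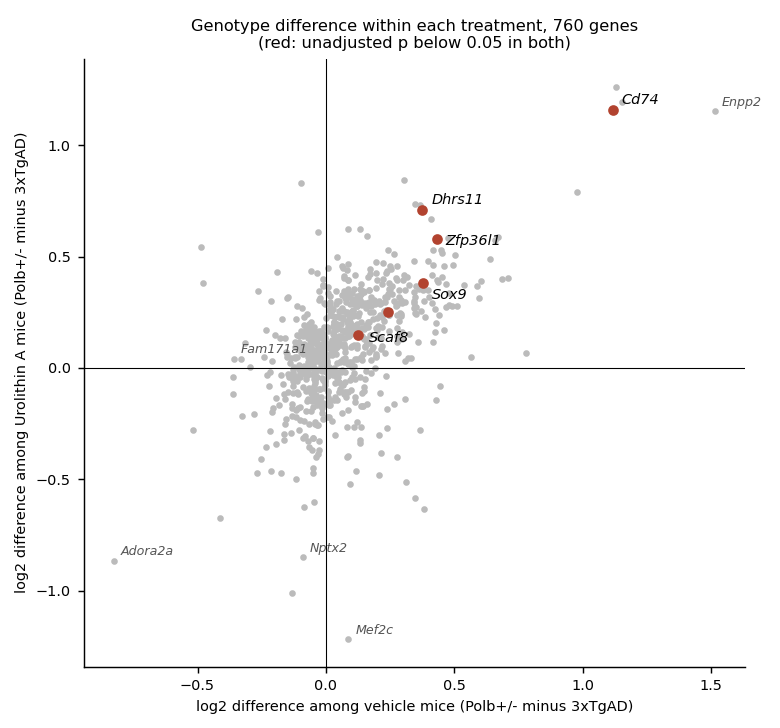
Each point is 1 of 760 genes, with the log2 difference of 3xTgAD/Polb+/- minus 3xTgAD among vehicle mice on the x axis and among Urolithin A mice on the y axis. Red points are the 6 genes with an unadjusted p below 0.05 in both, from Scaf8 near the origin to Cd74 at 1.12 and 1.16. Mef2c lies at 0.09 and -1.22, and Nptx2 at -0.09 and -0.85.

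The test of the difference between treatments found no gene past the adjusted threshold (smallest adjusted p = 0.991), and 25 genes (3.29%) had an unadjusted p below 0.05. Glud1, glutamate dehydrogenase, had the smallest, with a difference of -0.12 among vehicle mice and 0.22 among Urolithin A mice (0.34 apart, SE 0.10). Fam171a1 differed by -0.36 with vehicle (SE 0.10) and by 0.04 with Urolithin A (SE 0.10), 0.40 apart (SE 0.14, unadjusted p = 0.00881, adjusted p = 0.991). Its pooled difference was -0.18 (SE 0.08). The count of 25 was 50 without AD_veh 2, 43 without AD_UA 5, 41 without ADPolB_UA 6 and 16 without ADPolB_veh 6.

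By sex, the unadjusted p was below 0.05 for 63 genes among males and 78 among females, none passed the adjusted threshold in either, and 498 of 760 had the same sign. The male count was 94 without AD_veh 2, and 33, 31, 30 and 27 without AD_UA 3, AD_UA 8, ADPolB_veh 7 and ADPolB_UA 1. The female count was 41 without AD_veh 4, 42 without AD_veh 3 or AD_veh 5, 44 without ADPolB_UA 5 and 32 without ADPolB_veh 6. The test of the difference between sexes found no gene past the adjusted threshold, and 23 (3.03%) had an unadjusted p below 0.05. Gm20425 had the smallest, with a difference of -0.30 among males and 0.64 among females (0.94 apart, SE 0.24, adjusted p = 0.391). Without AD_veh 1, a male, 1 gene passed the adjusted threshold in this test and 41 had an unadjusted p below 0.05. That count was 15 without AD_veh 2, AD_veh 4 or ADPolB_veh 4. In the 4 combinations of treatment and sex, 133 genes were higher in 3xTgAD/Polb+/- mice in all 4 and 37 were lower in all 4. Of the 20 genes with the smallest pooled p, 19 were among these 133 of 760, and St6gal1 was higher in 3 of the 4. The 20 were chosen by p in the same mice, so their shared sign follows in part from that choice. It is not separate evidence.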

How the data were processed

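Total RNA of hippocampus was measured on the NanoString nCounter mouse Alzheimer disease panel, per the labels' protocols, and the series text names the Rosalind platform. The authors deposited 1 normalized log2 value per gene and mouse. How background was handled and which genes served for normalization is not given in the sources used, and counts were not analysed here, so depth is unknown and the number of mice limits the precision. Groups and replicate numbers came from the labels. Values were used as deposited. Each gene was fitted with limma 3.58.1 in R 4.3.3 (lmFit, eBayes) over 28 mice with genotype, treatment and sex as terms, and two-sided p-values were adjusted by Benjamini-Hochberg over 760 genes (threshold 0.05). Differences are 3xTgAD/Polb+/- minus 3xTgAD. Fits with a genotype by treatment or genotype by sex term gave the within-treatment and within-sex values. Sample medians were compared by permutation of genotype within treatment (100000 draws, sex not in the test). The fit was tested on simulated data in which each gene was drawn independently, so that test does not cover genes that vary together. No 2 mice shared more than 3.29% of values (within 0.005).

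Named genes were the 20 with the smallest p, the 5 largest differences in each direction at an unadjusted p below 0.05, up to 4 members per list by p, the gene with the smallest p of each interaction, and App and Mapt. Some genes and alleles that these rules would name are not reported here. Genes past the threshold without AD_veh 2, Fam171a1, the neighbours of Polb and further list members are named besides. The comparison, the lists and the members were chosen with earlier results of these data known. Of the 760 symbols, 759 were found in the GRCm38.p6 gene table, 9 by a former name. In 4 lists no gene was measured (oligodendrocyte precursor, reactive astrocyte, homeostatic microglia, thalamus-enriched) and in 8 only 1 or 2 were. Nothing in the labels names a batch. Alternatives were median centring, quantile normalization, sample weights, a filter on dim genes, other terms and left-out mice.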

Additional observations from a re-analysis of the deposited data

Results flagged for a closer look

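In 39 of 428 checks of a group of 6 to 8 mice, the highest or lowest mouse lay further from the rest than Dixon's 95% critical value, which chance alone does in about 1 check in 20. The checks covered 88 named genes, the sample median and the list means, which share mice and genes, and the 39 fell on 12 mice. In what follows the values of the rest of the group stand in parentheses where given, and no explanation was tested.

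AD_veh 2 held 15 of the 39. It was the highest of its group for Adora2a at 9.85 (1.90 to 4.23), Rgs4 at 12.76 (10.46 to 11.31), Rgs7bp at 11.3 (10.31 to 10.66), Tmem63a, a myelin list gene, at 9.75 (7.25 to 8.41), Cd2ap at 8.18 (6.98 to 7.39), Ogfod3 at 6.95 and the apoptosis and survival mean at 8.99 (8.08 to 8.40). It was the lowest for Bok at 6.02, Mal2 at 10 (10.93 to 11.41), Ppp3cb, a calcineurin catalytic subunit, at 10.76 (11.43 to 11.69) and Tollip at 10.01. The same held for the presynapse mean at 10.397 (11.035 to 11.408), the postsynapse mean at 10.635, the GABA mean at 8.508 and the proteasome mean at 9.007.

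Among the 3xTgAD/Polb+/- mice, ADPolB_UA 6 was the highest of its group for Rgs4 at 12.56 (10.49 to 11.24), Lgr5 at 7.35 (5.22 to 5.89), Atp5j2 at 8.94 and the Wnt mean at 9.127. ADPolB_veh 1 was the lowest for Mapt at 10.34 (11.12 to 11.48), Hsph1 at 10.02, the oxidative phosphorylation mean at 8.763 and the risk locus mean at 9.115. ADPolB_veh 5 was the lowest for Bok at 7.23, Bcl2l1 at 8.82 and Tollip at 10.21, and the highest for Scaf8 at 9.08. ADPolB_UA 5 was the highest for Myo10 at 8.26 and for the sample median at 9.07. ADPolB_UA 3 was the lowest for Bok at 7.36 and ADPolB_veh 2 for Adora2a at 0.98 (3.20 to 4.79).

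Among the other 3xTgAD mice, AD_UA 8 was the highest for Mal2 at 11.61 and the presynapse mean at 11.505, and AD_UA 7 the lowest for Flt1 at 6.44 and the endothelial mean at 7.09. AD_veh 8 was the highest for Psmb2 at 9.98 and the lowest for Hsph1 at 10.33. AD_UA 1 was the highest for Bcl2l1 at 9.2 and AD_UA 5 the lowest for Ndufab1 at 5.36.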

How the results depend on the processing

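The count of 0 genes at an adjusted p below 0.05 in the pooled comparison was the same with median centring, quantile normalization, no sex term, the mean of the within-treatment differences, wild type in the fit, trend and robust variances, the dimmest 25% of genes left out, a replicate block and the myelin mean as a covariate. It was 121 with sample weights and 0 to 19 when 1 mouse was left out. Limits lie in the unknown depth of the counts, the unstated normalization reference and the small number of mice. The cause of the changes below was not tested.

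The unadjusted count of 117 was 296 with sample weights, 72 without the dimmest genes and 76 to 218 when 1 mouse was left out. Chosen after seeing the data, leaving out AD_veh 2 together with median centring gave 243, and with quantile normalization 193. The counts within vehicle, Urolithin A, males and females with a mouse left out were also chosen after seeing the data. With the replicate block it was 71. The shared numbers gave no sign of pairing. Over 37 same-number pairs the mean correlation of deviations was 0.002 (-0.659 to 0.765), and 5 mice correlated best with their own number. Genotype by treatment, 25 in the main setting, gave 14 with median centring, 157 with sample weights (1 past the adjusted threshold) and 16 to 50 with 1 mouse left out. Genotype by sex, 23, gave 49 with sample weights (1 past the adjusted threshold), 6 without the dimmest genes, and 15 to 41 with 1 mouse left out (0 to 1 past the adjusted threshold). The difference of sample medians was 0.0641 (permutation p = 0.141) without the dimmest genes, and 0.0751 to 0.111 with 1 mouse left out.

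The direction of some named genes, all without a call in the main setting, turned. With median centring these were Aph1a (-0.0304), App (-0.0694), Bcl2 (-0.024), Bcl2l1 (-0.0618) and Glud1 (-0.0489). With quantile normalization they were Idh2 (-0.0118), Aph1a (-0.0955), App (-0.0091), Bcl2 (-0.1096), Bcl2l1 (-0.0659) and Lgr5 (-0.0789). Without AD_veh 2 as well, centring turned Psmb2 (-0.008), Aph1a (-0.036), App (-0.0783), Bcl2l1 (-0.0732), Lgr5 (-0.0235) and Glud1 (-0.0574), and quantile normalization turned Idh2 (-0.0305), Aph1a (-0.1076), App (-0.0026), Bcl2 (-0.0714), Bcl2l1 (-0.0784), Lgr5 (-0.0981) and Bok (-0.0329). Mapt turned with no sex term (0.0012) and with sample weights (0.0765). The replicate block turned Tollip (0.0112). The myelin covariate turned Aph1a (-0.0168), App (-0.008), Tollip (0.0202) and Vgf (0.0396). Leaving out AD_veh 2, AD_UA 3 and AD_UA 8 turned Pvalb (0.0267), Adora2a (0.1936) and Vgf (0.022). With 1 mouse left out, the ranges were -0.0388 to 0.1503 for Lgr5, -0.0512 to 0.0617 for Mapt and -0.0381 to 0.0094 for Tollip.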
